A study of Homo sapiens with 4 samples.

Results

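The mRNA levels of 10 keratins were followed in PC3 and DU145 cells, 2 established human prostate cancer cell lines, with and without knockdown of the transcriptional coregulator ESS2. The basal keratins were KRT5, KRT14, KRT15 and KRT17, the stress keratins were KRT6A and KRT16, and the keratins of luminal and simple epithelium were KRT7, KRT8, KRT18 and KRT19. The group was chosen by name after the ratios of KRT14 and KRT17 between the PC3 arrays were known, so every value given for its members is a description and no test was made. All of their probes were used, which were 14 probes for 10 genes among 25121 genes with a symbol on the array. The same arrays carry 44 other keratin genes.

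Each condition was measured on 1 one-colour Agilent expression array, hybridized with Cy3-labelled cRNA made from total RNA of whole cultures. PC3-shC and DU145-shC cells carried an shRNA against luciferase, and PC3-shESS2 and DU145-shESS2 cells an shRNA against ESS2. The labels describe lentiviral delivery in all 4 conditions. The published methods describe plasmid transfection and puromycin selection for the PC3 cells, and neither source gives the number of clones or of shRNA sequences. All cultures grew in RPMI1640 with serum and antibiotics. With a single array for each condition no difference has a replicate check, and precision is limited by the 4 arrays.

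Keratins build the intermediate filaments of epithelial cells, and each filament pairs an acidic type I keratin with a basic type II keratin. Basal cells of stratified and glandular epithelium pair KRT5 with KRT14 or KRT15, whereas luminal and simple epithelial cells pair KRT8 with KRT18, often with KRT7 and KRT19. KRT6A, KRT16 and KRT17 are known as the keratins that keratinocytes induce on wounding and inflammation. In the prostate, basal and luminal cells are told apart by these pairs, and most prostate adenocarcinomas carry the luminal pair.

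Signals were divided by the 75th percentile of their array before any ratio was taken, and ratios are given on the log2 scale with the knockdown over the control, or PC3 over DU145. The 75th percentile lay between 212 and 290 signal units, between 50.8 and 52.6% of the spots that were not controls lay well above background, and 0 of these spots were saturated. Among probes spotted 10 times, the log2 ratio between single spots of a pair of arrays had a median SD of 0.082 to 0.084. That spread covers spots only, not cultures or hybridizations. A signal that was not well above background was raised to the lowest one that was on its array, where it lay under that value. These lowest signals lay between 8.15 and 9.02, and a fold from a raised signal is written as a lower bound. A dim signal above that value, such as that of KRT16 in DU145-shC cells, was kept, and its ratio is a plain one. The probe for ESS2 had a log2 ratio of -1.45 in PC3 and -2.35 in DU145 cells. The PC3 pair shared a slide and a scan, and the DU145 pair another.

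In PC3 cells, KRT14, KRT17, KRT16 and KRT6A stood far above the control after ESS2 knockdown, whereas KRT15 and the luminal keratins were within 2-fold of it and KRT5 gave no signal. Of the 9 members compared, 4 were higher by more than 2-fold in PC3-shESS2 cells and 0 were lower. Among all 16764 genes compared, 3.88% were higher by that much, 3.87% were lower and 7.75% were either, and as the members were chosen with these ratios in view, nothing is read from that contrast. The median log2 ratio was 4.77 over the 3 basal keratins compared, 2.53 over the 2 stress keratins, 0.0086 over the 4 luminal keratins and -0.055 over all genes.

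**Figure D1:**
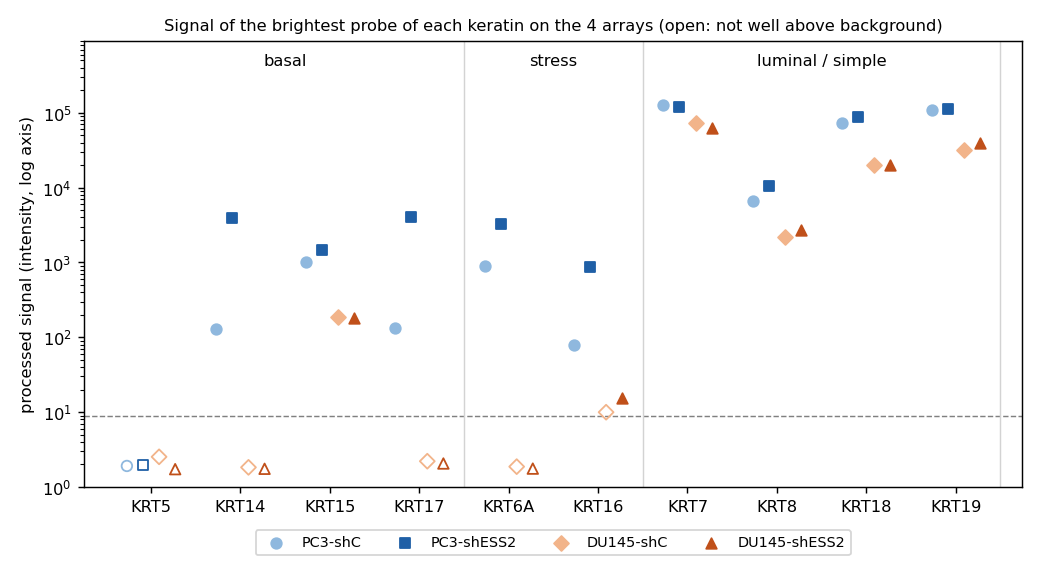
Processed signal (intensity, log axis) of the brightest probe of each of the 10 keratins, with 1 point for each array and open points where the probe was not well above background. The luminal keratins lie at 2160 or above on all 4 arrays, KRT14, KRT17 and KRT6A are filled only on the PC3 arrays, and KRT5 is open on all 4. The dashed line is the highest of the 4 arrays' lowest signals well above background, and levels of different probes are not comparable.

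KRT14, the type I partner of KRT5 in basal cells, gave a signal of 128 in PC3-shC and 3980 in PC3-shESS2 cells. In DU145-shC and DU145-shESS2 cells it gave 1.83 and 1.75, which were not well above background. The PC3-shESS2 array was thus the only one of the 4 on which this probe was bright, and after scaling it stood 28.2-fold above PC3-shC. A second KRT14 probe gave 11.6 in PC3-shC and 171 in PC3-shESS2 cells, a log2 ratio of 3.74, so both probes were higher by more than 2-fold and differed in size.

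KRT17, a type I keratin of basal cells and of wounded epithelium, gave 134 in PC3-shC and 4030 in PC3-shESS2 cells, and 2.21 and 2.06 in the DU145-shC and DU145-shESS2 cells. The order of the arrays was that of KRT14, with a 27.3-fold difference between the PC3 arrays and no signal well above background in DU145. KRT15, a type I keratin of basal and progenitor cells, gave 1020, 1480, 184 and 180 on the PC3-shC, PC3-shESS2, DU145-shC and DU145-shESS2 arrays. It was the basal keratin measured on all 4 arrays, and its log2 ratio was 0.40 in PC3 and -0.07 in DU145 cells, under 2-fold in both. Among the basal keratins of PC3 cells, the difference was thus large for KRT14 and KRT17 and small for KRT15.

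KRT5, the type II keratin that pairs with KRT14 in basal cells, gave 1.91, 1.97, 2.53 and 1.73 on the same 4 arrays. None of these signals was well above background, so no ratio was taken. The single KRT5 probe gives only a bound, and in PC3-shESS2 cells KRT14 mRNA was measured without a KRT5 signal beside it. The bases just before the KRT5 start are shown because it is the basal marker with no signal in either line, and because it is the member whose main start is in the RefSeq promoter table used here (GRCh38.p14, chr12:52520395-52520644, minus strand, 250 bases, 5′ to 3′). The capitals mark the E-box matches, CANNTG.
KRT5: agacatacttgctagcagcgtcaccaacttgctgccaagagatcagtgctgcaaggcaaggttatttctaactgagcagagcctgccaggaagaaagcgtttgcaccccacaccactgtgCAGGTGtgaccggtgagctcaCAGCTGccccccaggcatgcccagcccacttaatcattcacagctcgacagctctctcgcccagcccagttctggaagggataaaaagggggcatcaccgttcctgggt
The window held 2 E-box matches, starting 130 and 109 bases before the start site, and 61.8% of 35116 promoter windows of this length hold at least 1. Searched on both strands, it held 0 matches of the TATA box letters TATAAA, which 10.7% of the windows hold. It held 0 matches of the AP-1 letters TGANTCA (6.57% of windows), 0 of the Sp1 letters GGGCGG (42.6%) and 0 of the AP-2 letters GCCNNNGGC (19.8%). A match of letters is a description and not a bound site. The windows of KRT14, KRT16 and KRT17 are not shown here.

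KRT6A, a type II stress keratin, gave 887 in PC3-shC and 3240 in PC3-shESS2 cells, a 3.31-fold difference, and 1.87 and 1.76 in DU145-shC and DU145-shESS2 cells. It was already well above background in the PC3 control and had the smallest difference of the 4 members past 2-fold. KRT16, its type I partner, gave 79.8 in PC3-shC and 883 in PC3-shESS2 cells, a 10.0-fold difference. In DU145 cells KRT16 gave 9.98 in the control, not well above background, and 15.6 in DU145-shESS2 cells. The plain ratio to that dim signal was 1.52-fold, and with normexp background correction the log2 ratio was 0.00063. It was thus the only one of KRT14, KRT16, KRT17 and KRT6A with a signal well above background on a DU145 array, and that signal was low.

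The luminal keratins were bright on all 4 arrays. KRT8, the type II keratin of luminal cells, has 3 probes, and its brightest gave 6530, 10600, 2160 and 2700 on the PC3-shC, PC3-shESS2, DU145-shC and DU145-shESS2 arrays, with log2 ratios of 0.56 in PC3 and 0.28 in DU145 cells. Another KRT8 probe gave 207, 305, 56.5 and 92.9, with ratios of 0.42 and 0.68. The probe matched to a non-coding KRT8 transcript gave 824, 936, 1010 and 646, with ratios of 0.04 and -0.69. No KRT8 probe passed 2-fold, and in DU145 the probe of the non-coding transcript ran opposite to the other two.

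KRT18, the type I partner of KRT8, gave 72400, 86700, 20100 and 20200 on the 4 arrays in the same order, with log2 ratios of 0.12 in PC3 and -0.03 in DU145 cells. Its other probe gave 17100, 20500, 4090 and 3990, with ratios of 0.12 and -0.08. Both probes put KRT18 within 1.1-fold of the control in each line. The DU145 ratio of the brighter probe changes sign with quantile normalization, to 0.03, so no direction is read from it.

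KRT7, a type II keratin of simple and ductal epithelium, gave 128000 in PC3-shC and 118000 in PC3-shESS2 cells, and 72400 in DU145-shC and 62400 in DU145-shESS2 cells. Its log2 ratios were -0.26 in PC3 and -0.25 in DU145 cells, larger than the spread between spots and under 2-fold. KRT19, the smallest type I keratin, gave 109000, 112000, 31900 and 39100 on the arrays in the same order. Its log2 ratio was -0.10 in PC3 cells, a sign that turns with quantile normalization (0.029), and 0.25 in DU145 cells.

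**Figure D2:**
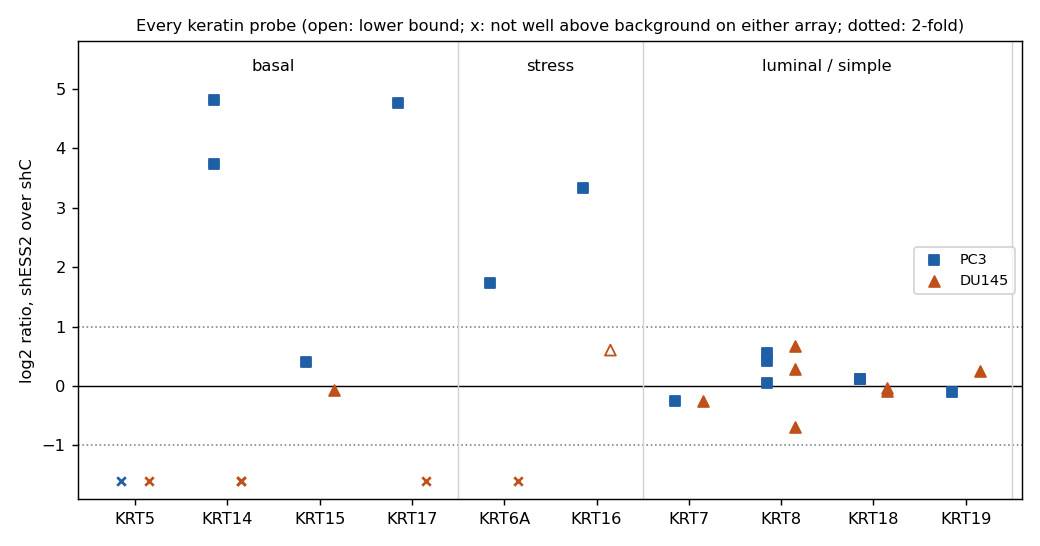
Log2 ratio of shESS2 over shC cells (y axis) for every probe of each keratin in PC3 (squares) and DU145 (triangles). Dotted lines lie at 2-fold, and crosses are probes not well above background on either array of the line. The open point marked as a lower bound, KRT16 in DU145, is a plain ratio to a dim signal. In PC3 the probes of KRT14, KRT16, KRT17 and KRT6A lie between 1.73 and 4.82, and those of KRT7, KRT8, KRT18 and KRT19 between -0.26 and 0.56.

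More cells that express a keratin and more of its mRNA in each cell cannot be told apart in RNA from whole cultures, nor can fewer cells and less mRNA. The PC3 ratios of the 4 keratins past 2-fold kept their direction and stayed past 2-fold in all 8 alternative settings that give a ratio. They ranged from 4.28 to 4.91 for KRT14, from 4.21 to 4.86 for KRT17, from 2.67 to 3.42 for KRT16 and from 1.63 to 1.82 for KRT6A.

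In DU145 cells, 0 of the 6 members compared were past 2-fold in either direction after ESS2 knockdown, where 2.36% of 16842 genes were higher, 2.47% lower and 4.83% either. The other 4, KRT5, KRT14, KRT17 and KRT6A, were not well above background on either DU145 array, so these data give no ratio for them. The median over the 6 was 0.11, against -0.022 over all genes. The number of members well above background was 9 of 10 in PC3-shC and PC3-shESS2 cells, 5 in DU145-shC and 6 in DU145-shESS2 cells. The 4 luminal members were among them on every array. Whether the response to knockdown differs between the lines was not tested.

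The control cells of the lines differed in keratins before any knockdown of ESS2. All 9 members compared were higher in PC3-shC than in DU145-shC cells, and 8 of them by more than 2-fold, where 22.1% of 17475 genes were higher by that much, 19.9% lower and 42.0% either. Each line lay on its own slide, so line and slide cannot be told apart. Among basal members, KRT14 was at least 11.9-fold and KRT17 at least 12.5-fold higher in PC3-shC cells, and KRT15 was 4.47-fold higher. With normexp background correction, which adds an offset to every signal, the log2 ratios of KRT14 and KRT17 were 1.51 and 1.37, far under these bounds though still past 2-fold. The bounds rest on DU145 signals near 2, which the floor replaces, so they carry no upper limit. A gene that passed because it was well above background in PC3 alone was set to come out higher there, unless its PC3 signal lay near the floor. KRT14, KRT17, KRT6A and KRT16 passed in this way.

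Among stress members, KRT6A was at least 82.7-fold higher in PC3-shC cells, and KRT16 was 6.45-fold higher by the plain ratio to its dim DU145-shC signal. With normexp the log2 ratio of KRT6A was 3.72, under its bound, and that of KRT16 was 0.67, under 2-fold. KRT8 also fell under 2-fold in some settings (0.75 to 0.84). The luminal members were measured in both lines. KRT18 was 2.90-fold, KRT19 2.75-fold, KRT8 2.44-fold and KRT7 1.43-fold higher in PC3-shC cells. The second KRT18 probe gave 3.37-fold. The other probe of the coding KRT8 transcript gave 2.95-fold, and the probe of the non-coding KRT8 transcript ran the other way, with a log2 ratio of -0.60.

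The scaling moved every ratio between the lines. The median of all genes was 0.12, and it shifted by 0.46 with scaling to the array median and by -0.45 with the authors' scaled values. Relative to the median of all genes, KRT15 was higher in PC3-shC cells by 2.04, KRT18 by 1.42, KRT19 by 1.34, KRT8 by 1.16 and KRT7 by 0.39 on the log2 scale. Over the 8 alternatives these differences ranged from 1.90 to 2.35, from 1.11 to 1.73, from 1.13 to 1.66, from 0.69 to 1.48 and from 0.25 to 0.71, in the same order.

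**Figure D3:**
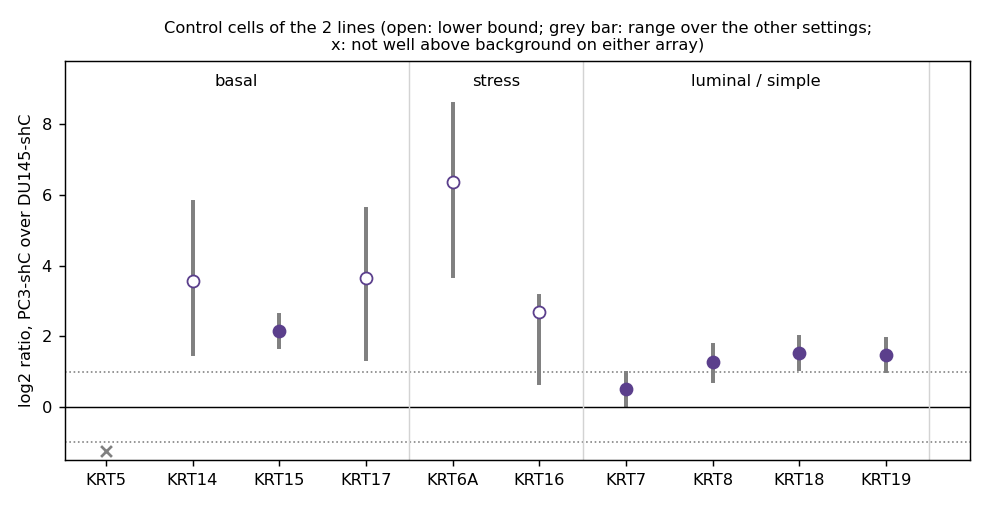
Log2 ratio of PC3-shC over DU145-shC cells (y axis) for the brightest probe of each keratin. Open points are lower bounds, except that of KRT16, which is a plain ratio to a dim signal. Grey bars give the range over the alternative settings, dotted lines lie at 2-fold, and a cross marks KRT5, which was not well above background on either array. All 9 points lie above 0, from 0.51 for KRT7 to at least 6.37 for KRT6A.

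Most keratin genes lie in clusters, type I genes on chromosome 17 and type II genes with KRT18 on chromosome 12. In the order of the RefSeq gene table, KRT9, KRT14, KRT16 and KRT17 follow each other among the genes with a probe. KRT9, a type I keratin of palm and sole epidermis, gave 49.6 in PC3-shC and 239 in PC3-shESS2 cells, a log2 ratio of 2.13, and 44.2 and 40.2 in the DU145 cells. These 4 neighbours were higher by more than 2-fold in PC3-shESS2 cells. KRT13, KRT15 and KRT19, which lie just before them, had ratios of 0.04, 0.40 and -0.10, and EIF1, a translation initiation factor beyond KRT17, had 0.21.

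On chromosome 12, KRT6B, KRT6C and KRT6A follow each other and had ratios of 1.98, 1.86 and 1.73 in PC3 cells. KRT75, a hair follicle keratin on one side of them, gave 224 in PC3-shC and 49.6 in PC3-shESS2 cells, a ratio of -2.32, and KRT5 on the other side gave no signal above background. KRT8 and KRT18 close that cluster, at 23 and 25 genes from KRT6A. The keratins lower by more than 2-fold were KRT75 and, in the type I cluster at 66 genes from KRT14, KRT23 (-2.53). Of 16 keratin-associated protein genes of hair with a PC3 ratio, which lie between KRT23 and KRT14 in that cluster, 0 were higher by more than 2-fold and 2 were lower, KRTAP1-5 (-2.37) and KRTAP3-3 (-1.08), with a median of -0.18. Over all genes 3.87% were lower by that much, and the median was -0.055. These genes and EIF1 were named after their values were seen.

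**Figure D4:**
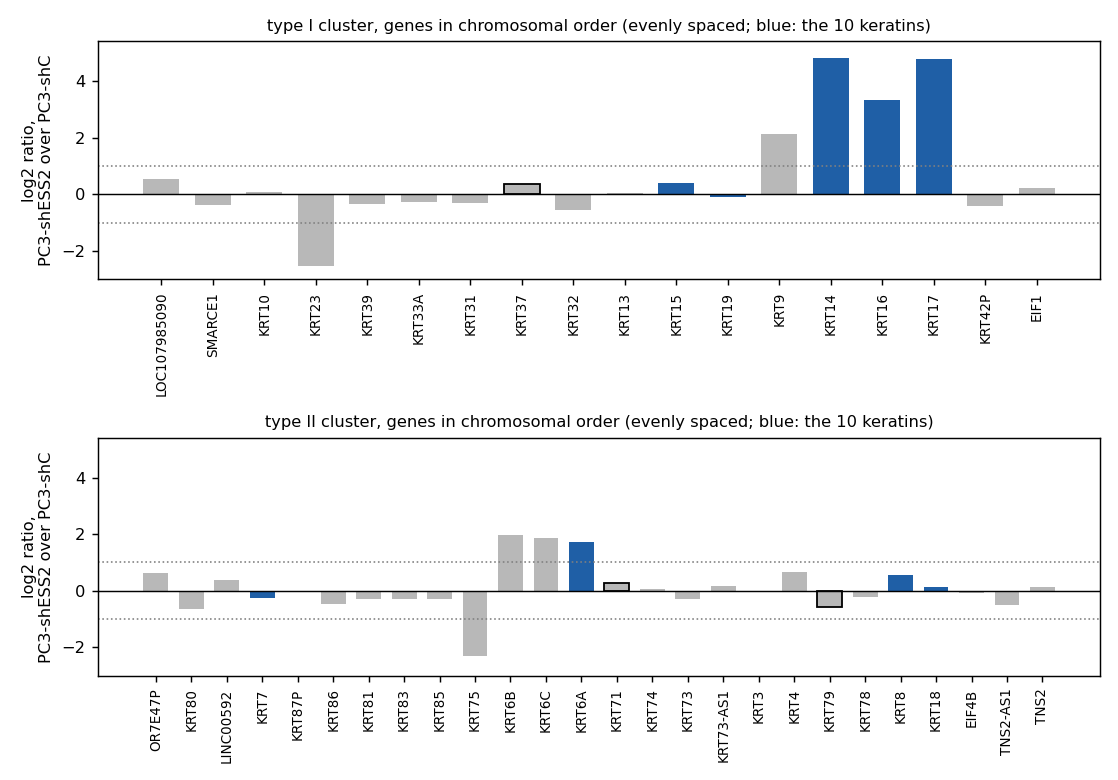
Log2 ratio of PC3-shESS2 over PC3-shC cells (y axis) for the genes of each keratin cluster that had a ratio, keratin-associated protein genes left out, in chromosomal order and evenly spaced (x axis), with the 10 keratins in blue, outlined bars for bounds and dotted lines at 2-fold. KRT9, KRT14, KRT16 and KRT17 stand together at 2.13 to 4.82 in the type I cluster, and KRT6B, KRT6C and KRT6A at 1.73 to 1.98 in the type II cluster.

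Near-identical copies limit these values. The KRT6 genes resemble each other closely, and processed or duplicated copies of KRT14, KRT16 and KRT17 are known. Probes named for the pseudogenes KRT17P1 and KRT16P2 had PC3 ratios of 4.74 and 4.13, beside 4.77 for KRT17 and 3.33 for KRT16. Those of KRT18P55 and KRT19P2 had 0.06 and -0.06, beside 0.12 for KRT18 and -0.10 for KRT19. In DU145 cells the KRT16P2 probe had a ratio of 1.49, past 2-fold, and gave 34.6 in DU145-shESS2 cells. Whether a probe tells a gene from its copies was not tested. The pseudogene KRT42P beyond KRT17 has 2 probes that disagree, at -0.40 and 5.05, and was named after its values were seen.

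Other keratins were described by groups, beside the shares of all genes past 2-fold, 3.88% higher and 3.87% lower in PC3 and 4.83% either way in DU145, and the all-gene median of -0.055 in PC3. In PC3 cells, 1 of 4 other type I epithelial keratins compared was higher by more than 2-fold (KRT9) and 1 was lower (KRT23), with a median of 0.056. Of 7 other type II epithelial keratins, 2 were higher (KRT6B and KRT6C) and 0 lower, with a median of -0.037. Of 4 root sheath keratins, 0 were higher and 1 was lower (KRT75). Of 9 hair keratins, 0 passed 2-fold in either direction, with a median of -0.30. In DU145 cells, 0 of the members compared in these 4 groups passed 2-fold. The hair keratin KRT81 was bright in PC3-shC cells at 204000, against 9830 in DU145-shC cells, a log2 ratio of 4.06 between the lines.

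The genes whose 4 values lay nearest to those of KRT14, by Euclidean distance of centred log2 values over 18127 genes, were KRT17 at 0.054, the protease inhibitor SPINK6 at 0.44, the interferon-induced gene RSAD2 at 0.63, KRT17P2 at 1.22 and KRT17P1 at 1.25. For KRT18 they were COMMD7 (0.021), HNRNPA3 (0.028), UBE2Z (0.053), TSR2 (0.055) and CRCP (0.058). The likeness rests on 4 arrays, and in DU145 cells the values of KRT14 and of the genes near it sit at the floor.

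Genes that work beside keratins in basal and stratified epithelium were described in the same way. LAMA3 and LAMB3 encode laminin chains of the matrix that anchors basal cells, and their PC3 ratios were 1.56 and 1.25. In DU145 cells the LAMA3 ratio was 0.77 and the LAMB3 ratio -1.28. Of 9 desmosome genes compared, 2 were higher by more than 2-fold in PC3 cells, PKP1 (2.45) and DSC2 (1.31), with a median of 0.49. Among all genes 3.88% were higher and 3.87% lower by that much. In DU145 cells DSP, which ties keratins to desmosomes, was lower by more than 2-fold (-1.29), 1 of 9 compared, where 2.47% of all genes were lower.

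Of 10 genes of the cornified envelope, the protein shell of terminally differentiated keratinocytes, 4 were higher by more than 2-fold in PC3-shESS2 cells and 0 lower, with a median of 0.68, beside 3.88% and 3.87% of all genes. All 4 encode small proline-rich proteins. SPRR2A gave 45.0 in PC3-shC and 475 in PC3-shESS2 cells, a ratio of 3.26, and SPRR2E, SPRR1B and SPRR3 had ratios of 2.90, 2.63 and 2.61. SPRR1B and SPRR3 were low in PC3-shC cells, at 11.8 and 25.9. Not every gene of that family was higher, as SPRR2D had a ratio of 0.079 and SPRR1A, named after its value was seen, 0.0015. Of the 6 compared in DU145 cells, 0 passed 2-fold, where 4.83% of all genes did. Of 11 epidermal and basal transcription factors, SOX9 (1.21) and OVOL1 (1.10) were higher by more than 2-fold in PC3 cells. In DU145 cells 8 were compared, of which KLF5 was higher (1.21) and OVOL2 lower (-2.89).

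TP63, the transcription factor that marks basal cells of the prostate and drives KRT5 and KRT14 in epidermis, was not well above background on any array. Of 4 other basal prostate markers compared in PC3 cells, 0 passed 2-fold. Of 8 luminal prostate markers, 3 were higher by more than 2-fold, DPP4 (1.30), CD24 (1.24) and ACP3 (1.21), and TMPRSS2 was lower (-1.42). The median was -0.50, a sign opposite to that of the 3, and among all genes 3.88% were higher and 3.87% lower. ACP3 rests on low signals, 9.15 in PC3-shC and 23.3 in PC3-shESS2 cells. In DU145 cells 7 were compared, of which CD24 was higher by more than 2-fold (1.27) and 0 lower, where 2.36% of all genes were higher and 2.47% lower. DPP4 had a DU145 ratio of 0.53 and TMPRSS2 one of -0.93 or lower. The luminal markers KLK3 and FOLH1 were not well above background on any array.

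**Figure D5:**
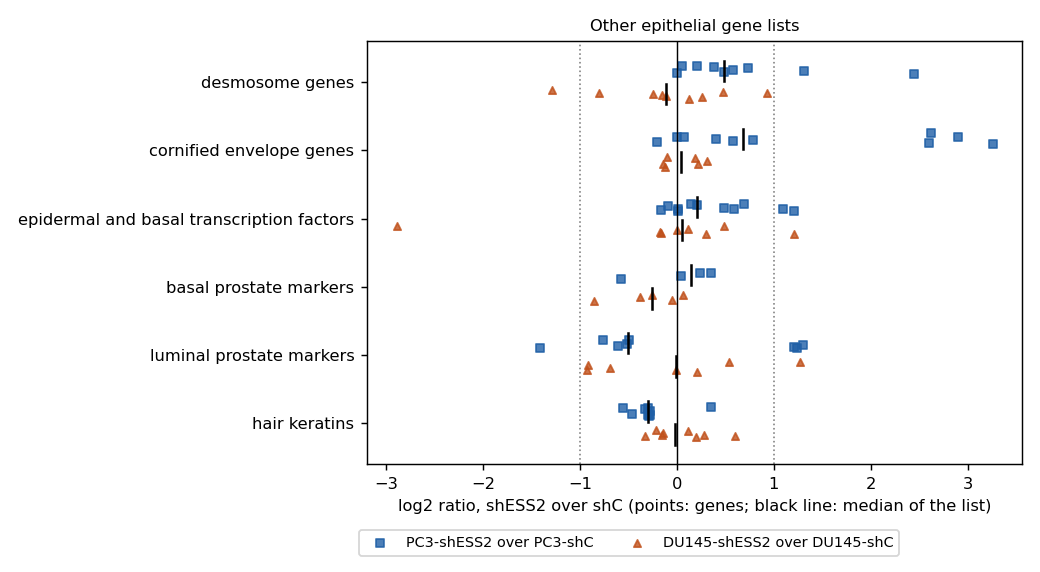
Log2 ratio of shESS2 over shC cells (x axis) for each gene of 6 lists in PC3 (squares) and DU145 (triangles), with black lines at the medians and dotted lines at 2-fold. In PC3 the cornified envelope list has 4 genes between 2.61 and 3.26, and no hair keratin passes 2-fold in either line.

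The mesenchymal filament gene VIM gave 620 in PC3-shC and 4250 in PC3-shESS2 cells, a log2 ratio of 2.64, and 38100 and 34500 in DU145-shC and DU145-shESS2 cells. VIM was thus higher beside KRT14, KRT16 and KRT17 in PC3-shESS2 cells, and it was far higher in DU145 cells, where these keratins were at or near background. The epithelial markers EPCAM, CDH1, CLDN4 and CLDN7 were well above background on all 4 arrays and 4 of 4 were higher by more than 2-fold in PC3-shC than in DU145-shC cells, with a median of 4.73, where 22.1% of all genes were higher. In PC3 cells 0 of the 4 passed 2-fold after knockdown, whereas in DU145 cells CLDN4 was higher (2.22) and EPCAM (-2.61) and CLDN7 (-1.93) were lower, where 2.36% of all genes were higher and 2.47% lower.

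Markers of other cell types were followed on the same arrays. Of 5 fibroblast markers, COL1A2, COL3A1 and DCN were not well above background on any array, and the summed signal of the 5 lay between 83.7 and 282. The others had PC3 ratios of 2.16 (LUM) and -0.57 (COL1A1). Of 4 leukocyte markers, CD3E was not well above background on any array, and the sum lay between 124 and 325. CD14 had a PC3 ratio of -2.16, and gave 221, 54.7, 172 and 274 on the PC3-shC, PC3-shESS2, DU145-shC and DU145-shESS2 arrays. The sum of 3 endothelial markers was 410 in PC3-shC and 100 in PC3-shESS2 cells and 60.2 and 70.7 in the DU145 cells, and their PC3 ratios were -4.51 for PECAM1, 0.18 for VWF and 0.03 for CDH5. The sum of 3 neuroendocrine markers was 363 in PC3-shC and 928 in PC3-shESS2 cells. ENO2 had a PC3 ratio of 1.20, CHGA one of at least 0.76, and SYP was not well above background on any array. The part of these markers in the keratin ratios was not tested.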

How the data were processed

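RNA from the 4 conditions was measured on 1 array each. The authors deposited the scanner output, in which the intensity of every spot was background-subtracted by Agilent Feature Extraction without scaling between arrays. Per the file headers, version 12.1.0.3 was used for PC3 and 12.0.3.1 for DU145. The published methods name GeneSpring without settings. A deposited table of scaled intensity equals the processed signal times 1 constant for each array.

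Control and outlier spots were left out, spots of a probe were averaged, and log2 values were centred on the 75th percentile of each array. Probes were named by RefSeq accession through a GRCh38.p14 gene table, which matched 35080 probes and left 23121 unmatched. The brightest probe over the 4 arrays represented a gene. Genes entered a comparison if at least 1 of its arrays showed them well above background. No test was made, as each condition has 1 array and the members were chosen with their ratios known. A fit over both lines, with 1 residual degree of freedom, was not used here. No positions on the array design's build are given.

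The members and gene lists were chosen with earlier results of these data known. Named genes are the members, ESS2, up to 5 genes of each list with the largest ratio in either line, TP63, VIM and the 5 nearest profiles, and some genes under this rule are not reported here. List genes dim on every array, and genes said to be chosen after their values were seen, are named beside these. The alternatives were another scaling (median, quantile, the authors' values), normexp with an offset of 50 (limma 3.58.1, R 4.3.3), other filters, other uses of a gene's probes, outlier spots kept and a 1.5-fold threshold. The calculation was tested on simulated data in which every changed gene was well above background on both arrays, so lower bounds were not covered. Python 3.11.15, numpy 2.4.6, pandas 2.3.3 and matplotlib 3.10.9 were used.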

Additional observations from a re-analysis of the deposited data

Results flagged for a closer look

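KRT19 ran in opposite directions in the lines, with a log2 ratio of -0.10 in PC3 and 0.25 in DU145 cells, a difference of -0.36 between PC3 and DU145. Each line has 1 array for each condition, so the difference was not tested. The PC3 ratio is near the spread between spots and turns to 0.029 with quantile normalization.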

How the results depend on the processing

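The labels give no replicate numbers, and no fit with a replicate block was made. Each ratio within a line already sets control and knockdown of 1 slide side by side, and no replicate could be left out. Of 150 counts recomputed under the alternatives, 129 stayed within 1.5 times their main value, and no keratin past 2-fold changed sign under any of them. The number of keratins higher in PC3-shC than in DU145-shC cells, 8, fell to 4 when both arrays had to be well above background, as 4 keratins were then no longer compared. With a 1.5-fold threshold, 1 keratin was higher in DU145-shESS2 cells (KRT16, a ratio to a dim signal, with a log2 ratio of 0.00063 under normexp) in place of 0.

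Counts over all genes moved more. In PC3, 650 genes were higher and 649 lower. These counts were 248 and 323 with normexp, 1431 and 1193 without a filter on dim genes, and 1688 and 1673 at 1.5-fold. In DU145, 397 were higher and 416 lower. These were 139 and 77 with normexp, 959 and 1061 without the filter, and 1209 and 1453 at 1.5-fold, and 271 were lower when both arrays had to be well above background. Between the lines, 3863 genes were higher in PC3-shC cells and 3480 lower. The higher count was 6132 with scaling to the median, 2399 with the authors' values and 5905 at 1.5-fold, and the lower count was 2021 with normexp.

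Scaling to the median gave 511 higher and 803 lower genes in PC3, so that 38.9% of those past 2-fold were higher. Between the lines the higher share moved from 52.6 to 72.1% with that scaling and to 31.7% with the authors' values. With normexp it moved from 48.8 to 64.4% in DU145. The PC3 median of all genes shifted by -0.10 with scaling to the median, and that between the lines by -0.32 without the filter. KRT8 between the lines was under 2-fold with the mean of its probes (0.75), quantile normalization (0.82) and the authors' values (0.84). Signals near background limit KRT5 on all arrays and KRT14, KRT17, KRT6A and KRT16 in DU145 cells. The cause of these shifts was not tested.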
